A study of Mus musculus with 5 samples.

Results

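Sarcoma cells with a high level of Spp1 were compared with sarcoma cells of the same library that held almost none. A sarcoma cell was a barcode with 500 or more detected genes, at most 10% mitochondrial unique molecular identifiers (UMIs, each standing for 1 captured RNA molecule), 2 or more UMIs of Gchfr, 0 of Smarcb1, fewer than 2 of Ddah1, Wisp1, C1qtnf7 and Fbn2 summed, fewer than 5 of Rgs5 per 10000, and 10000 or more UMIs in all. Of 39930 barcodes in the series, 16179 met this rule. Spp1-high cells had 20 or more Spp1 UMIs per 10000 UMIs of the cell, and Spp1-low cells had fewer than 1. A library entered the comparison where both sides held 50 or more cells. Sarcomas 1, 2 and 4 did, with 146, 50 and 259 Spp1-high cells and 4431, 5686 and 2418 Spp1-low cells. Together these are 12990 of the 13634 sarcoma cells of the 3 libraries. Sarcoma 3 held 13 Spp1-high cells and 2516 Spp1-low cells and was not compared.

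Spp1 encodes osteopontin, a secreted phosphoprotein of the SIBLING family that binds mineral, integrins and the hyaluronan receptor CD44. Osteoblasts, osteoclasts, macrophages and many carcinoma and sarcoma cells make it, and it acts as a matrix protein, a cytokine and a cell attachment factor. In bone its transcription is driven by Runx2, and ETS and AP-1 factors are other known activators of the gene.

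The cells came from C57BL/6J mice in which both copies of Hic1 carry CreERT2, so that tamoxifen activates Cre in Hic1-expressing mesenchymal progenitors and their descendants. The sarcoma animals had the genotype Hic1CreERT2/CreERT2;Rosa26LSLtdTomato/LSLtdTomato;Smarcb1FL/FL and were taken at endpoint, and their tumours are labelled as epithelioid sarcoma. The body sites were shoulder (sarcoma 1), head (sarcoma 2), head/ear (sarcoma 3) and hip (sarcoma 4), with 1 library each. The remaining library held quiescent progenitors of hindlimb muscle from a Hic1CreERT2/CreERT2;Rosa26LSLtdTomato/+ animal, with no floxed Smarcb1. Tamoxifen was injected into all animals at 8 weeks, at 2.5 mg in 100 µL of sunflower oil a day for 5 days, and was followed by a 10-day washout. tdTomato-positive cells were sorted before loading. Both states share the genotype, the reporter and the treatment, so the comparison is between cells within a tumour. The labels do not say whether each sarcoma is from its own animal, so p-values cover the spread among these libraries alone, part of which may be technical.

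The 4 sarcoma matrices held 151903246 to 213271163 UMIs each, and any pair of libraries shared 12 to 22 barcodes. Summed over cells, the Spp1-high state held 4992359 UMIs in sarcoma 1, 1881373 in sarcoma 2 and 8556024 in sarcoma 4, against 129189449, 180228328 and 84232521 in the Spp1-low state. The high sum of sarcoma 2 was the shallowest, so its low genes carry the largest counting error. tdTomato, the lineage reporter, was present in both states. It stood at 597 counts per 1000000 UMIs of the sum (CPM) in the high state and 704 in the low state of sarcoma 1, at 367 and 343 in sarcoma 2, and at 241 and 271 in sarcoma 4.

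The cells were chosen by their Spp1 level itself, so the values of Spp1 are a description. In sarcoma 1, 3.07% of sarcoma cells were Spp1-high (exact 95% binomial interval 2.60 to 3.60). The share was 0.839% in sarcoma 2 (0.623 to 1.10), 0.511% in sarcoma 3 (0.272 to 0.872) and 8.87% in sarcoma 4 (7.87 to 9.96). The intervals cover counting error only. The shares of sarcomas 2 and 3 overlapped within these intervals, and those of sarcomas 1 and 4 were above both.

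These few cells held most of the Spp1 RNA of the sarcoma cells. They carried 92.2% of the Spp1 UMIs in sarcoma 1, 87.7% in sarcoma 2, 75.3% in sarcoma 3 and 92.0% in sarcoma 4. The median level of a Spp1-high cell was 80.8 UMIs per 10000 in sarcoma 1, 60.2 in sarcoma 2, 37.1 in sarcoma 3 and 54.5 in sarcoma 4, and the highest cells reached 726, 669, 159 and 760. In sarcomas 1, 2 and 4 there was no gap in the level at the limit. The lowest Spp1-high cell and the nearest cell below it stood at 21.2 and 19.8 in sarcoma 1, at 21.5 and 19.8 in sarcoma 2, at 22.8 and 13.6 in sarcoma 3 and at 20.06 and 19.97 in sarcoma 4. Between the limits of 1 and 20 lay 179, 223, 16 and 242 cells, which entered neither state.

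**Figure D1:**
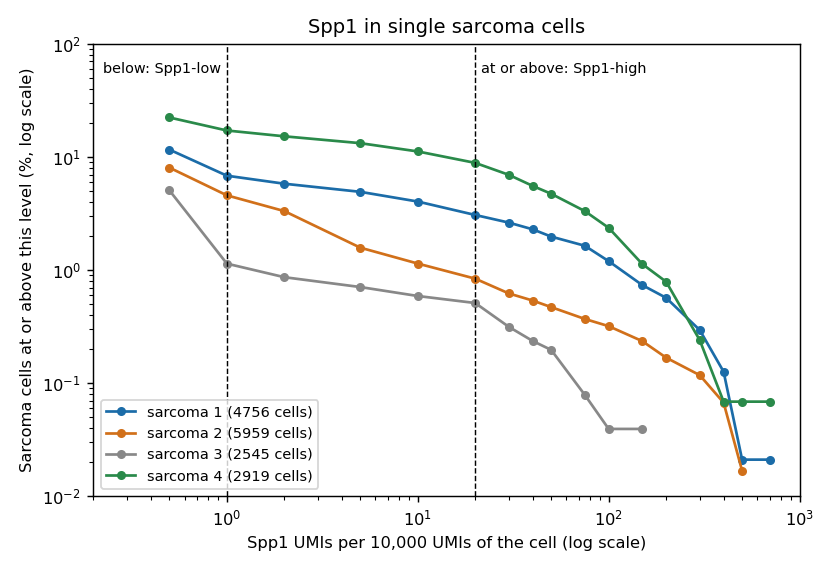
Share of sarcoma cells (y axis, percent, log scale) at or above each Spp1 level (x axis, UMIs per 10000 UMIs of the cell, log scale) in the 4 sarcoma libraries, with dashed lines at the limits of 1 and 20. Sarcoma 4 has the largest share at a level of 20 (8.87%) and sarcoma 3 the smallest (0.511%).

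A Spp1 UMI in a droplet need not come from its cell. Cells with 0 Gchfr UMIs and 20 or more Rgs5 UMIs per 10000, a mural marker, held 0.406, 0.382, 0.859 and 0.219 Spp1 UMIs per 10000 in sarcomas 1 to 4. Spp1-low cells lie below 1 by rule, and the share of sarcoma cells with any Spp1 UMI was 25.7%, 22.1%, 14.0% and 42.6%. In the Rgs5-high cells the share was 18.3%, 8.33%, 11.8% and 21.4%. Those cells were shallower, with median totals of 11489.5, 11858, 9788 and 10293 UMIs, against 26777, 28841, 23597 and 33005 in sarcoma cells. The highest single Rgs5-high cell stood at 18.6, 23.5, 19.6 and 0.901 UMIs per 10000. In sarcoma 2, 1 of 84 Rgs5-high cells (1.19%) was thus above the limit of the high state, with an exact 95% interval of 0.0301 to 6.46 that holds the share of sarcoma cells there. In sarcomas 1, 3 and 4, 0 of 142, 0 of 187 and 0 of 14 Rgs5-high cells were. Of 8107 kept muscle cells, 6 reached it (0.0740%), and no muscle cell met the sarcoma rule.

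The Spp1 promoter is shown because the gene defines both states. The sequence is the 250 bases before the RefSeq start on build GRCm38.p6, 5′ to 3′ along the gene, with motif matches in capitals.
Spp1 promoter, chr5:104434861-104435110, + strand: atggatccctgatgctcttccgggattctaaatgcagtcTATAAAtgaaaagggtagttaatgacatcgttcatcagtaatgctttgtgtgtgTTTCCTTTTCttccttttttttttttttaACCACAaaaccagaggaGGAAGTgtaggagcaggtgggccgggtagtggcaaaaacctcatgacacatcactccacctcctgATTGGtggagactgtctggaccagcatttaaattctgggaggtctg
Words were searched on both strands. ACCACA was the word for RUNX factors. For ETS factors it was GGAAGT. AP-1 factors were given the word TGANTCA, where N is any base. The letters TATAAA were the TATA word. CCAAT was searched as it is spelled, and so was the interferon-stimulated response element (ISRE), a pair of GAAA words with 2 bases of any kind between them. The window held a RUNX word at -128, an ETS word at -111, a TATA word at -211, CCAAT on the minus strand at -46 and an ISRE word on the minus strand at -157, and no AP-1 word. Of 32851 mouse promoters of this length, 14.0% held the RUNX word, 19.7% the ETS word, 12.4% the TATA word, 33.8% CCAAT, 6.75% the AP-1 word and 2.98% the ISRE word. A match describes the letters only.

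No gene passed the threshold between the states. The quasi-likelihood test of edgeR, with the library as a block and 3 pairs of sums, called 0 of 13534 genes (0.0%) at an adjusted threshold of 0.05, and the smallest adjusted p was 0.192. At an unadjusted p of 0.05, edgeR held 569 genes (4.2%), of which 251 were higher (1.85%) and 318 lower (2.35%) in Spp1-high cells. Across the 3 libraries, 900 genes were higher in every one (6.65%) and 2413 were lower in every one (17.8%). The high sums are far shallower than the low ones, and the part of depth in this imbalance was not tested. limma-voom called 0 genes and held 859 at an unadjusted p of 0.05. DESeq2, run as an alternative, called 28 of 12484 genes (0.224%), 17 higher (0.136%) and 11 lower (0.0881%). The genes named next are those 28, chosen after their values were seen, and none of them passed edgeR.

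Of the 11 lower genes, Gbp2 and Ifit1 were among the 23 tested members of the interferon list. AW112010, Iigp1 and Cxcl9 are outside that list and are also known to be induced by interferon, which was noted after their values were seen. AW112010, annotated as a lincRNA, stood at 28.6 CPM in the high state and 139 in the low state of sarcoma 1, at 33.5 and 131 in sarcoma 2, and at 0 and 1.45 in sarcoma 4. It was lower in the high state of all 3 libraries, and in sarcoma 4 both states were near 0. Its log2 fold change was -2.22 ± 0.23 (SE, 3 pairs; edgeR adjusted p = 0.192, DESeq2 adjusted p = 0.000632).

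Gbp2 encodes a guanylate-binding protein that acts against intracellular pathogens. It stood at 31.8 CPM against 71.0 in sarcoma 1, at 21.3 against 77.4 in sarcoma 2, and at 0.818 against 2.74 in sarcoma 4, high state first. The high state was the lower one in each library, with a log2 fold change of -1.48 ± 0.18 (edgeR adjusted p = 0.240, DESeq2 adjusted p = 0.000189).

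Ifit1, which binds RNA lacking cap methylation, stood at 88.1 CPM against 160 in sarcoma 1, at 86.6 against 178 in sarcoma 2, and at 1.40 against 1.96 in sarcoma 4. Its log2 fold change was -0.88 ± 0.13 (edgeR adjusted p = 0.381, DESeq2 adjusted p = 0.0319). Iigp1, an immunity-related GTPase, stood at 54.7 against 99.7, at 68.6 against 130, and at 0.584 against 0.962, a log2 fold change of -0.88 ± 0.11 (edgeR adjusted p = 0.265). In sarcoma 3, with 13 Spp1-high cells, the differences of the other libraries were not seen. There Gbp2 stood at 36.6 CPM in the high state and 31.6 in the low state, Ifit1 at 123 and 114, Iigp1 at 59.9 and 33.2, and AW112010 at 19.97 and 21.5.

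The promoters of Ifit1 and Gbp2 are shown beside that of Spp1 because their genes were lower where Spp1 was high and all 3 windows hold the ISRE word.
Ifit1 promoter, chr19:34640639-34640888, + strand: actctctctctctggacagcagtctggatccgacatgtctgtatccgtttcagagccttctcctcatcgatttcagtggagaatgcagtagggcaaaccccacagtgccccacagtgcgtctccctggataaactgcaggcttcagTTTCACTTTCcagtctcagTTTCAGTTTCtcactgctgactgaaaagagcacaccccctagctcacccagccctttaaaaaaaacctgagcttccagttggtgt
Gbp2 promoter, chr3:142620413-142620662, + strand: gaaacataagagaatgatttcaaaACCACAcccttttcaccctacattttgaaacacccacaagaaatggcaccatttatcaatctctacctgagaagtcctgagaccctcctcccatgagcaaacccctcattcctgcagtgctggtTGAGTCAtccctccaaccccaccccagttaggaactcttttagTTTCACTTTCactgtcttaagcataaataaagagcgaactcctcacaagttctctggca
Capitals mark the same words as above, from the same RefSeq table and build. Ifit1 held 2 ISRE words on the minus strand, at -104 and -85. Gbp2 held 1 on the minus strand at -59, a RUNX word at -226 and an AP-1 word at -102. The window of Timp1, which was higher in the high state of all 3 libraries, was searched too. It held an ETS word at -174 and CCAAT on the minus strand at -190, and no ISRE word. The windows shown were picked partly for holding the ISRE word, so finding it in each is no support for a shared control.

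Over 5 bins of the Spp1 level, 7 of the 84 series of the 28 genes in 3 libraries ran in steady order, 5 upward and 2 downward. The downward ones were AW112010 in sarcoma 1 and Gbp2 in sarcoma 2. In sarcoma 1, AW112010 stood at 139 CPM in cells below 1 Spp1 UMI per 10000, and at 119, 65.1, 51.1 and 15.5 in the bins from 1 to 5, 5 to 20, 20 to 50 and 50 or more. It was lower in each next bin. In sarcoma 2, Gbp2 stood at 77.4, 54.1, 41.3, 28.2 and 16.7 over the same bins, again lower in each next bin, while AW112010 stood at 131, 100.0, 129, 64.4 and 13.2 with no steady order. The bins below 1, from 20 to 50 and at 50 or more hold the cells by which the 28 genes were chosen. An order from end to end is thus no separate support for a gene. Only the cells between 1 and 20 were used by neither state. The share of steady series over all genes was not counted.

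The other lower genes of the 28 included the chemokine genes Ccl11, Ccl5 and Cxcl9. Ccl11, the eotaxin chemokine, stood at 4.41 CPM against 31.4, at 0.532 against 13.1 and at 26.6 against 110 in sarcomas 1, 2 and 4. In sarcomas 1, 2 and 4, 95.5%, 100% and 66.7% of its high-state UMIs came from 1 cell. Ccl5 stood at 1.80 against 21.6 in sarcoma 1 and at 0 in the high state of sarcomas 2 and 4, against 4.11 and 2.14. Cxcl9, a ligand of CXCR3, stood at 2.00 against 23.5, at 1.06 against 12.4 and at 0.234 against 0.522. The high-state values of Cxcl9 rest on 10, 2 and 2 UMIs. Ly6a, which encodes the progenitor antigen SCA-1, was lower at 23.4 CPM against 93.1 in sarcoma 1, at 12.2 against 30.5 in sarcoma 2 and at 57.4 against 120 in sarcoma 4 (log2 fold change -1.44 ± 0.20, edgeR adjusted p = 0.342). Prg4, Fam46a and S100a8 completed the lower side, and S100a8 was above 2 CPM in sarcoma 1 alone, at 42.3 against 180.

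Of the 17 higher genes Degs1, which makes ceramide from dihydroceramide, stood at 425 CPM in the high state and 306 in the low state of sarcoma 1, at 260 and 190 in sarcoma 2, and at 180 and 143 in sarcoma 4. The high state was the higher one in each library (log2 fold change 0.43 ± 0.09, edgeR adjusted p = 0.808, DESeq2 adjusted p = 0.00164). Ctsl, the lysosomal protease cathepsin L, stood at 10253 against 7168, at 655 against 424 and at 898 against 756 (0.48 ± 0.09, edgeR adjusted p = 0.719). In sarcoma 1 its level was higher in each next Spp1 bin, from 7168 CPM to 7560, 8305, 8606 and 11214.

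Ier3, an immediate-early gene induced through ERK, stood at 324 CPM against 257 in sarcoma 1, at 347 against 155 in sarcoma 2 and at 390 against 172 in sarcoma 4. Its log2 fold change was 0.91 ± 0.18 (edgeR adjusted p = 0.808, DESeq2 adjusted p = 0.0498). Fjx1, a secreted four-jointed family protein, stood at 41.1 against 13.7, at 38.3 against 14.7 and at 45.1 against 29.7, a log2 fold change of 1.18 ± 0.20 (edgeR adjusted p = 0.626). Both were higher in all 3 libraries.

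Kdelr3 and Fkbp11, which act in retrieval and folding of secretory proteins in the endoplasmic reticulum, had log2 fold changes of 1.11 ± 0.19 and 0.95 ± 0.17. Kdelr3 stood at 3.20 CPM against 1.24, at 15.4 against 7.80 and at 16.4 against 8.04. Fkbp11 stood at 38.5 against 26.2, at 39.3 against 16.5 and at 12.9 against 6.07. Both were higher in the high state of each library, while the 17 members of the list of endoplasmic reticulum chaperones and the unfolded protein response had a median log2 fold change of 0.04.

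The other 11 higher genes, Pkd2, Inpp4b, Ptn, Sms, Qpct, Tmsb4x, Cdc42ep3, Has1, Nrk, Clu and Qrfp, had log2 fold changes of 0.65 to 2.14. Has1, a hyaluronan synthase, stood at 18.6 CPM against 6.86, at 56.9 against 20.4 and at 6.78 against 1.56 (1.66 ± 0.19, edgeR adjusted p = 0.211, DESeq2 adjusted p = 1.03e-07). Sms, which makes spermine, stood at 137 against 75.8, at 57.4 against 39.6 and at 22.3 against 10.7, higher in all 3 libraries. Clu, the secreted chaperone clusterin, stood at 79.1 against 17.6 in sarcoma 1 and 86.0 against 26.1 in sarcoma 4, and was at 0 against 0.161 in sarcoma 2. In sarcoma 1, more than 25% of the high-state Clu UMIs came from 1 cell. For 10 of the 28 genes 1 cell held over 50% of the high-state UMIs in at least 1 library, and these were Ccl11, Cxcl9, Fam46a, Has1, Ly6a, Nrk, Prg4, Ptn, Qrfp and Tmsb4x. Of the 28 genes, 14 of the 17 higher and 11 of the 11 lower kept their direction in all 3 libraries. Over all genes tested, 6.65% were higher and 17.8% lower in all 3. The 28 were chosen by a paired fit on these same libraries, so the shared direction is no separate support for them.

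**Figure D2:**
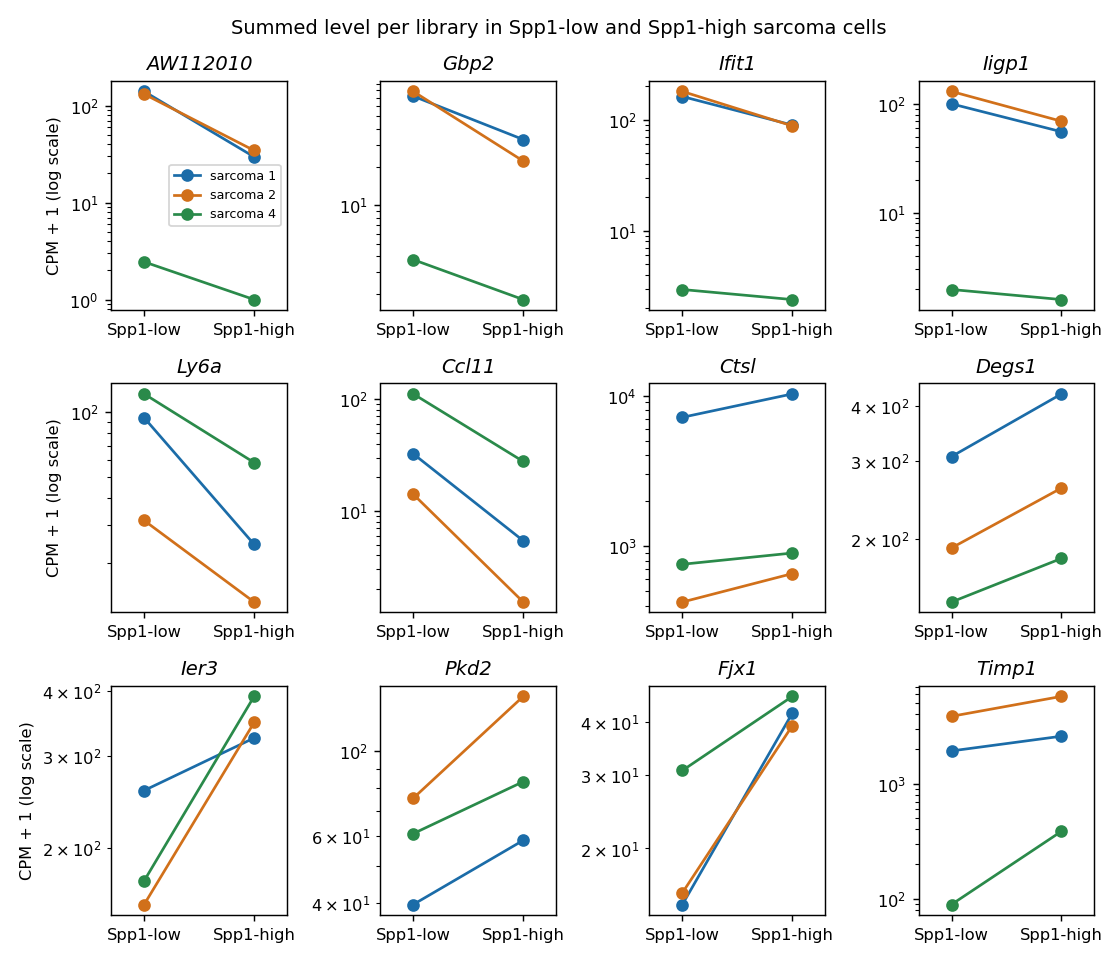
Level of 12 genes (y axis, CPM + 1, log scale) in Spp1-low and Spp1-high sarcoma cells, with 1 line per library. AW112010, Gbp2, Ifit1, Iigp1, Ly6a and Ccl11 slope down and the other 6 slope up in all 3 libraries, and sarcoma 4 lies near 0 for AW112010, Gbp2, Ifit1 and Iigp1.

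Pkd2, which encodes the ciliary cation channel polycystin-2, is the gene that follows Spp1 on its chromosome. It starts 18.4 kb beyond the end of Spp1 on the same strand of chromosome 5. Pkd2 stood at 57.5 CPM in the high state and 38.7 in the low state of sarcoma 1, at 138 and 74.4 in sarcoma 2, and at 82.3 and 59.9 in sarcoma 4. It was higher in the high state of each library (log2 fold change 0.65 ± 0.11, edgeR adjusted p = 0.626, DESeq2 adjusted p = 0.00671). In sarcoma 3, which the rule leaves out, it stood at 356 and 176.

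The neighbours were then examined, a choice made after the value of Pkd2 was seen. Within 500 kb of Spp1 lie 16 genes, of which 9 were counted well enough to test. Pkd2, which prompted the choice, BC005561, Nudt9 and Sparcl1 were higher in all 3 libraries and 0 of the 9 were lower in all 3. Over all genes these shares were 6.65% and 17.8%, and nothing is read from the difference, since Pkd2 was known beforehand. BC005561, the next gene after Pkd2, stood at 30.05 CPM against 25.99, at 70.7 against 45.4 and at 57.4 against 51.0 (0.34 ± 0.12, edgeR adjusted p = 1.00). Nudt9, which encodes an ADP-ribose pyrophosphatase and lies 369.7 kb before Spp1, stood at 128 against 85.5, at 82.9 against 75.3 and at 57.9 against 42.3 (0.41 ± 0.12, edgeR adjusted p = 1.00). Sparcl1, which encodes the matrix protein hevin, stood at 767 against 286 in sarcoma 1 and at 1069 against 914 in sarcoma 2, and at 0.351 against 0.309 in sarcoma 4, where the high state held 3 UMIs. None of the 9 passed the adjusted threshold of edgeR, and BC005561 and Nudt9 differed by less than Pkd2. Whether counting used the strand is not given in the sources used here, so reads of a gene and of one on the other strand cannot be told apart.

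The other SIBLING genes lie in the same stretch, between Sparcl1 and Spp1, and did not accompany it across libraries. Dspp, Ibsp and Mepe were at 0 CPM in the high state of all 3 libraries and below 1 CPM in the low state. Dmp1, a matrix protein of osteocytes and dentin, stood at 526 against 120 CPM in sarcoma 1 and below 1 CPM in both states of sarcomas 2 and 4. In sarcoma 1, more than 25% of its high-state UMIs came from 1 cell.

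**Figure D3:**
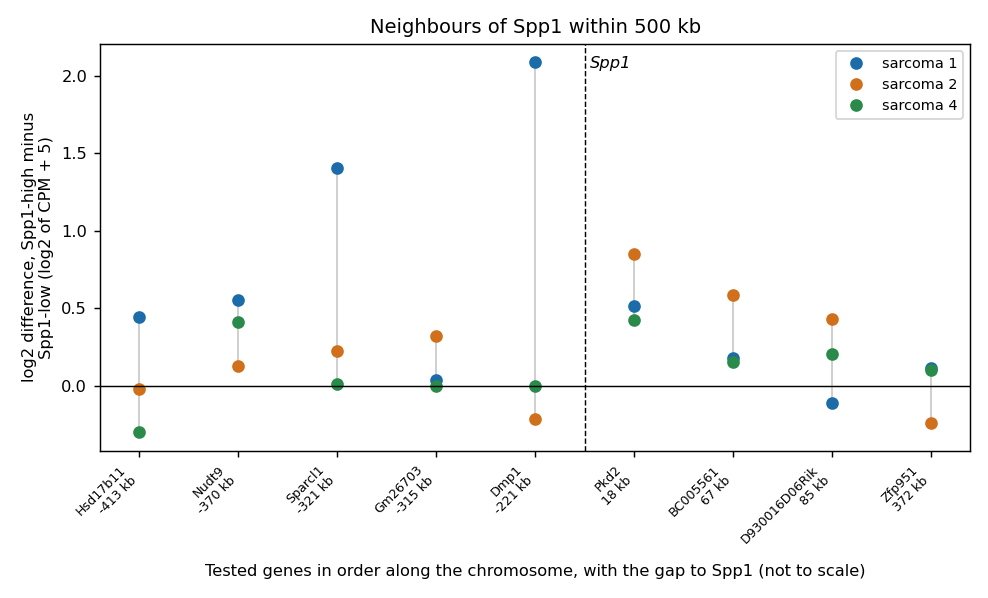
Difference between the states (y axis, log2 of CPM + 5, Spp1-high minus Spp1-low) for the 9 tested genes within 500 kb of Spp1, in order along the chromosome (x axis, gap to Spp1 in kb, not to scale), with 1 point per library. Pkd2, BC005561, Nudt9 and Sparcl1 are above 0 in all 3 libraries. Dmp1 is far above 0 in sarcoma 1 alone, where 1 cell held more than 25% of its high-state UMIs.

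No member of any pathway list passed the adjusted threshold of edgeR, so the counts that follow are at an unadjusted p of 0.05, which 1.85% of all genes passed as higher and 2.35% as lower. Of 13 tested genes of the SIBLING and bone matrix list (24 in all), 3 were higher (beside 1.85% of all genes) and 0 lower, with a median log2 fold change of 0.26 beside -0.03 over all genes. They were Dmp1, which was above 1 CPM in sarcoma 1 alone, Omd and Ank. More than 25% of the high-state Dmp1 UMIs of sarcoma 1 came from 1 cell. By library the list's median difference was 0.08, -0.07 and 0.22 in sarcomas 1, 2 and 4. Ank, which exports pyrophosphate, an inhibitor of mineral growth, stood at 270 CPM against 228, at 581 against 499 and at 176 against 145, higher in all 3 libraries (0.26 ± 0.09, edgeR adjusted p = 1.00). Sp7, the osteoblast transcription factor osterix, stood at 41.9 against 17.5 in sarcoma 1, at 44.6 against 43.1 in sarcoma 2 and at 13.4 against 13.1 in sarcoma 4.

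Of 10 receptor genes of osteopontin, 8 were counted well enough to test. Of the 8, 1 was higher at an unadjusted p of 0.05 (beside 1.85% of all genes) and 0 were lower, and the median log2 fold change was -0.06. Itgb6 and Itga4 were below 1 CPM in both states of the 3 libraries and were not tested. In sarcoma 4, Itgb3 stood at 0 CPM against 0.107 and Itgb5 at 0.351 against 1.13, while in sarcomas 1 and 2 both were above 70 CPM in each state. Itgb1, the shared β1 subunit, stood at 486 CPM against 526, at 555 against 569 and at 531 against 548. Itgav, the αv subunit, stood at 198 against 215, at 365 against 363 and at 83.6 against 91.9. Cd44 stood at 217 against 257, at 181 against 133 and at 22.8 against 21.2, and its direction differed between libraries. The log2 fold change was -0.05 ± 0.08 for Itgb1, -0.07 ± 0.09 for Itgav and 0.10 ± 0.14 for Cd44 (edgeR adjusted p = 1.00 for each). Itga5 was the 1 receptor past the unadjusted threshold, at 52.3 against 40.6, 43.6 against 32.2 and 7.13 against 6.86 (log2 fold change 0.31 ± 0.12, edgeR adjusted p = 1.00). Of 6 tested enzymes that cut or crosslink osteopontin, 0 passed it in either direction. The proteases among them included the urokinase gene Plau, at 183 against 162, 544 against 651 and 0.584 against 0.772 CPM, and Mmp9, at 38.7 against 27.8, 21.3 against 22.1 and 0.701 against 0.890.

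The interferon list had 23 tested members, of which 0 were higher and 8 lower at an unadjusted p of 0.05, beside 1.85% and 2.35% of all genes. Its median log2 fold change was -0.37 beside -0.03. The 8 lower members were Gbp2, Ifit1, Ifit3, Rsad2, Oasl2, Psmb8, Psmb9 and Ifi35. Of the 23, 11 were lower in all 3 libraries and 0 higher in all 3, beside 17.8% and 6.65% of all genes. Not every member was lower, and Ifitm3, Bst2 and Ifi27 had log2 fold changes of 0.12, 0.04 and 0.35. Ifitm3 stood at 1671 CPM against 1990 in sarcoma 1, at 3370 against 3134 in sarcoma 2 and at 1512 against 1089 in sarcoma 4. Oasl2 stood at 25.4 CPM against 40.9 in sarcoma 1, at 49.96 against 59.6 in sarcoma 2 and at 2.69 against 5.59 in sarcoma 4. Psmb8, an immunoproteasome subunit, stood at 40.9 against 63.7, at 48.4 against 58.3 and at 0.351 against 1.25. By library the list's median difference was -0.45 in sarcoma 1, -0.24 in sarcoma 2 and -0.02 in sarcoma 4, where most members were at a few CPM. The 11 genes of the MHC class I list had a median of -0.11 and did not share a direction. H2-K1 stood at 240 against 330, at 201 against 303 and at 38.1 against 24.6.

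Of 11 tested S100 genes, which encode small calcium-binding proteins, 0 were higher and 5 lower at an unadjusted p of 0.05, beside 1.85% and 2.35% of all genes, and the median was -0.32. The 5 were S100a8, S100a11, S100a13, S100a16 and S100b. Of these, S100b was below 1 CPM in both states of the 3 libraries, and S100a8 was above 2 CPM in sarcoma 1 alone. S100a13 stood at 455 CPM against 628, at 901 against 1071 and at 983 against 1184, lower in all 3 libraries (-0.32 ± 0.09, edgeR adjusted p = 0.957). The 22 tested chemokines and cytokines had a median of -0.50, with 2 higher and 5 lower beside the same shares of all genes. Their median difference was -0.34, -0.45 and 0.02 in sarcomas 1, 2 and 4. Cxcl1, a neutrophil chemokine, and Lif were the 2 higher ones. The collagens had a median of -0.31 over 21 genes, with 0 higher and 3 lower beside 1.85% and 2.35% of all genes. Their median difference was -0.31 in sarcoma 1, -0.55 in sarcoma 2 and 0.12 in sarcoma 4, where it ran the other way. Haematopoietic markers, which sarcoma cells should lack, were also lower in the high state of sarcomas 1 and 2, with sums of 68.8 against 212 and 16.7 against 33.8 CPM. S100a8, which is on the S100 list too, made up 41.7 and 180 CPM of the 2 sums of sarcoma 1. In sarcoma 4 the sum was higher in the high state, at 31.3 against 23.2. Without cells that held 2 or more UMIs of these markers, the median was -0.31 for the interferon list, -0.23 for the S100 list and -0.39 for the chemokines. With every cell thinned to 10000 UMIs the chemokine median was -0.11, and in cells with under 3 UMIs of G2/M genes it was -0.05.

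The hypoxia list, which holds genes induced through HIF, had 2 of 21 members higher and 0 lower at an unadjusted p of 0.05, beside 1.85% and 2.35% of all genes, with a median of 0.11. Slc2a1, the glucose transporter GLUT1, stood at 71.5 CPM against 48.7, at 22.3 against 21.7 and at 104 against 73.7, and Ankrd37 at 39.1 against 20.7, 50.5 against 24.8 and 77.0 against 65.1. Of 18 glycolysis genes, 1 was higher beside 1.85% of all genes, the lactate exporter Slc16a3, at 16.8 against 7.45, 40.9 against 15.3 and 10.5 against 8.70. Gapdh stood at 630 against 570, at 692 against 585 and at 937 against 1015, with no shared direction. Of 17 genes of RAS-MAPK feedback and ETV targets, 2 were higher and 0 lower beside 1.85% and 2.35% of all genes. The 2 were Ier3 and the ephrin receptor Epha2, which stood at 42.7 against 25.9, 40.9 against 18.8 and 24.2 against 18.8.

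**Figure D4:**
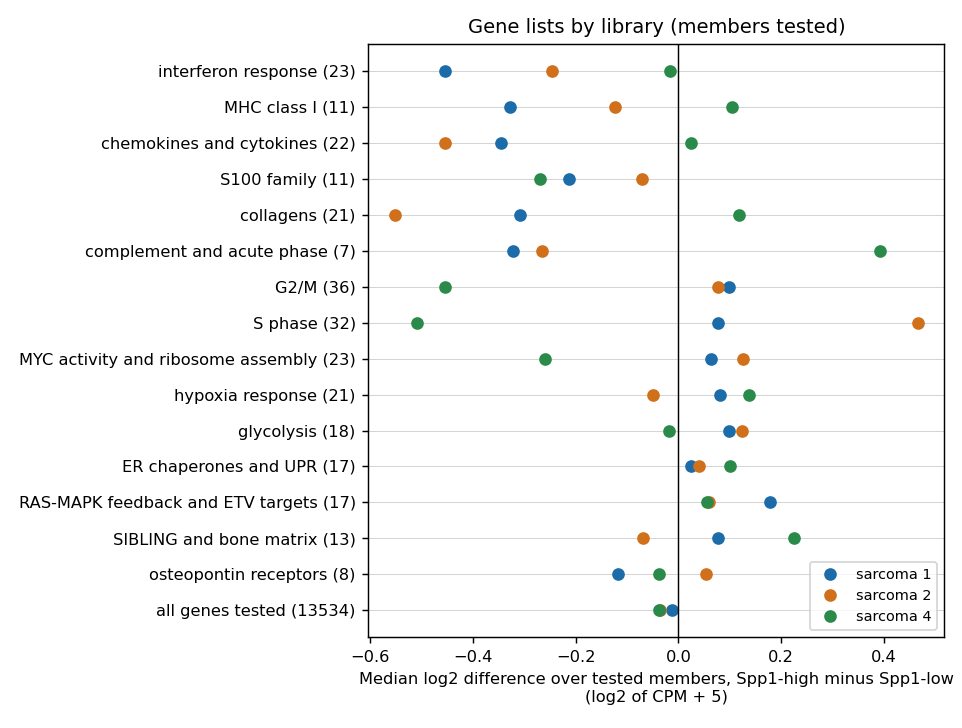
Median difference between the states over the tested members of 15 gene lists and all genes (x axis, log2 of CPM + 5, Spp1-high minus Spp1-low), with 1 point per library and the number of members in brackets. The interferon list lies below 0 in sarcomas 1 and 2 and at -0.02 in sarcoma 4, and the cell cycle lists lie above 0 in sarcomas 1 and 2 and below it in sarcoma 4.

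The differences between the states were weakly related from library to library. Among genes at 50 CPM or more in a pair of libraries, the differences of sarcomas 1 and 2 had a Pearson correlation across genes of 0.25 (2639 genes). It was -0.18 between sarcomas 1 and 4 (2325 genes) and -0.08 between sarcomas 2 and 4 (2349 genes). Genes are not independent replicates, and these values carry no p. Most of the genes that follow had the largest differences of 1 library at this level, and all are given without a test. Higher genes with more than 25% of their high-state UMIs in 1 cell were left out of that ranking.

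In sarcoma 1, 61 genes were higher by more than 1 on the log2 scale (0.451%) and 31 lower (0.229%). The Spp1-high cells stood out by Hmgn5, a nucleosome-binding protein, at 177 CPM against 40.4, by Lgals7 at 200 against 49.3 and by the prostaglandin synthase gene Ptgs2 at 142 against 44.6. They were low in monocyte-attracting chemokines. Ccl8 stood at 7.41 against 62.0, Ccl7 at 20.6 against 97.4 and Ccl2 at 601 against 1357. In sarcoma 2, Ccl2 ran the other way, at 841 against 462. Krt18, a keratin of simple epithelia, stood at 71.9 against 10.2 in sarcoma 1 and at 2.02 or less in both states of sarcomas 2 and 4. In sarcoma 1, more than 25% of the high-state Krt18 UMIs came from 1 cell.

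In sarcoma 2, 58 genes were past +1 (0.429%) and 76 past -1 (0.562%). The Spp1-high cells were higher in Phlda1, at 334 CPM against 145, in Dusp5, at 108 against 47.0, in Lif, at 196 against 84.8, and in the membrane proteins Tm4sf1, at 786 against 178, and Thbd, at 535 against 191. Phlda1 and Dusp5 are on the RAS-MAPK list, whose median difference in sarcoma 2 was 0.06, and its members Etv4, at 56.3 against 62.5, and Spry1, at 89.3 against 120, were lower there. The Spp1-high cells were also lower in Ctgf, a matricellular target of YAP and TGF-beta, at 23.9 against 395. In sarcoma 4, Ctgf was higher in Spp1-high cells, at 412 against 126, and in sarcoma 1 it stood at 10.2 against 12.5.

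In sarcoma 4, 62 genes were past +1 (0.458%) and 61 past -1 (0.451%). The Spp1-high cells were higher in Timp1, an inhibitor of metalloproteinases, at 385 CPM against 88.0, in Mgp, an inhibitor of calcification, at 400 against 116, in Cdh11 at 168 against 58.5 and in Cxcl14 at 64.6 against 12.3. Timp1 was higher in every bin of Spp1 than in the one before it, at 88.0, 132, 205, 260 and 491 CPM. It was also higher in sarcomas 1 and 2, at 2589 against 1928 and 5748 against 3856 (log2 fold change 1.04 ± 0.33 over the 3 libraries, edgeR adjusted p = 1.00). Of the neuroendocrine and neuronal list, 16 members were tested, with a median difference of 0.17 in sarcoma 1, -0.08 in sarcoma 2 and -0.32 in sarcoma 4. Members and related genes went both ways in sarcoma 4, where Cpe, a prohormone-processing enzyme, stood at 656 CPM against 425 and the neuropeptide gene Penk at 894 against 677. Grp, the gastrin-releasing peptide, stood at 362 against 2001, Stmn2 at 58.2 against 219 and the neurofilament gene Nefl at 61.9 against 180. In sarcoma 1, Grp, Stmn2 and Nefl ran the other way, with Grp at 3476 against 1894, Stmn2 at 57.5 against 23.5 and Nefl at 1792 against 1184.

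**Figure D5:**
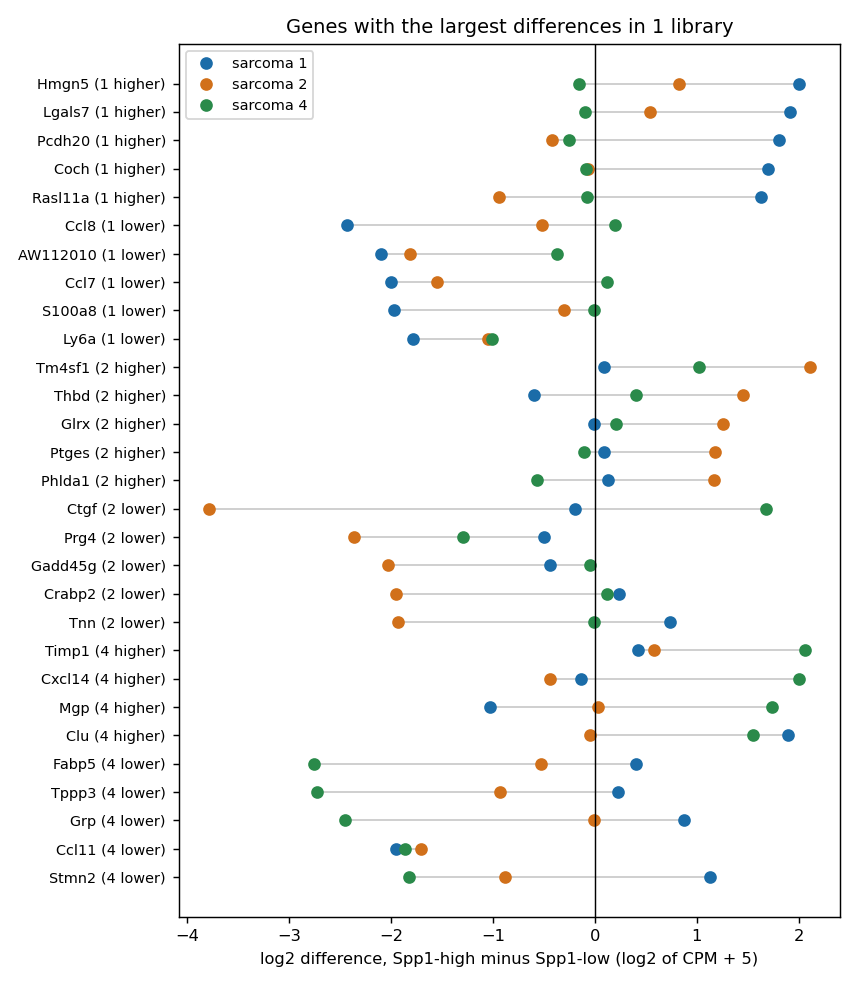
Difference between the states (x axis, log2 of CPM + 5, Spp1-high minus Spp1-low) for the 5 genes with the largest difference in each direction and library, with 1 point per library and the choosing library and direction in brackets. Higher genes with more than 25% of their high-state UMIs in 1 cell were left out of the choice. For most genes the choosing library stands apart from the other 2, and Ctgf and Grp lie on opposite sides of 0 in different libraries.

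Ferritin heavy chain, Fth1, marked a second divide in sarcoma 4. It stood at 20189 CPM in Spp1-high cells and 7655 in Spp1-low cells, against 1831 and 1743 in sarcoma 1 and 1175 and 1087 in sarcoma 2. Of the Spp1-high cells of sarcoma 4, 203 of 259 (78.4%) had 50 or more Fth1 UMIs per 10000, and of the Spp1-low cells 866 of 2418 (35.8%) did. Seen the other way, 16.2% of the 1253 sarcoma cells above that limit and 3.36% of the 1666 below it were Spp1-high. The limit was chosen after the values were seen. On each side of it Mgp was higher in Spp1-high cells, at 479 against 240 above and 154 against 57.3 below, and Grp was lower, at 183 against 508 above and 918 against 2714 below. Timp1 was higher in Spp1-high cells above the limit, at 498 against 191, and not below it, at 31.8 against 39.1. Nefl stood at 50.1 against 70.8 above and 98.8 against 233 below, and Stmn2 at 62.5 against 81.0 and 44.8 against 286. Cxcl14 stood at 82.9 against 24.3 above and 7.71 against 6.63 below, and Ly6a at 34.6 against 102 and 128.6 against 129.2. The part of Fth1 in the differences of sarcoma 4 was not tested.

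With sarcoma 4 left out, edgeR called 195 of 14334 genes (1.36%), 78 higher and 117 lower. That fit rests on the pairs of sarcomas 1 and 2 alone, with fewer residual degrees of freedom than the 2 of the main test. In sarcoma 4, 104 of the 195 (53.3%) ran the other way, and no such share was taken over all genes. The called lower genes, 117 of 14334 over all genes, included 9 of the 21 listed collagens. Among these, Col6a1 stood at 46.5 CPM against 100 in sarcoma 1, 28.7 against 81.2 in sarcoma 2 and 104 against 52.7 in sarcoma 4. Also called lower were 6 of 29 listed chemokines and cytokines and 5 of 24 listed interferon genes (Gbp2, Ifit1, Ifit3, Isg15 and Rsad2). So were 3 of 15 listed complement and acute phase genes (C1ra, C1s1 and Serping1) and 4 of 16 listed progenitor genes (Abca8a, Cd248, Gsn and Ly6a). Gsn, the actin-severing protein gelsolin, stood at 271 against 680 in sarcoma 1, at 1235 against 1985 in sarcoma 2 and at 1137 against 458 in sarcoma 4. The called higher genes included Dmp1, Krt18, Ctsl, Timp1, Lif, Ccnd2 and Tmsb4x. For Dmp1 and Krt18, 1 cell held more than 25% of the high-state UMIs of sarcoma 1. With sarcoma 1 left out 34 genes were called (0.244%), and with sarcoma 2 left out 5 (0.0351%).

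Of 32 S phase genes, 0 passed an unadjusted p of 0.05, and of 36 G2/M genes 0 were higher and 3 lower, beside 1.85% and 2.35% of all genes. The median difference was 0.08, 0.47 and -0.51 for the S phase list and 0.10, 0.08 and -0.45 for the G2/M list in sarcomas 1, 2 and 4. Each cell was thinned to 10000 UMIs before it was scored. Of Spp1-high and Spp1-low cells, 76.7% and 71.4% had 3 or more UMIs of G2/M genes in sarcoma 1, 72.0% and 55.3% in sarcoma 2, and 43.6% and 63.3% in sarcoma 4. The share was larger in the high state of sarcomas 1 and 2 and smaller in that of sarcoma 4. The mean was 64.1% against 63.3% (exact paired permutation test, 2-sided p = 1, where 3 pairs cannot go below 0.25). Mki67 stood at 37.7 CPM against 39.99, at 49.96 against 49.2 and at 5.61 against 16.3, so that it was not higher in the high state of sarcoma 1. The part of the cell cycle in the differences of the other genes was not tested.

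The median UMI count of a cell was 31366.5 in the high state against 26492 in the low state of sarcoma 1. It was 32364.5 against 29022.5 in sarcoma 2 and 32003 against 33522.5 in sarcoma 4. Total UMIs enter the rule and were not tested. In mitochondrial share the states lay close, though a test on 3 pairs cannot show that they are alike. For mitochondrial UMIs, the median share over the cells of each library was taken. The mean of these medians was 2.79% ± 0.521 (SD, n = 3 libraries) against 2.93% ± 0.578 (exact paired permutation p = 0.5, 2-sided, adjusted p = 1 over 8 tests). Detected genes in thinned cells, again as the mean of library medians, were 2899 ± 33.3 against 2947 ± 3.79, lower in 3 of 3 libraries (exact p = 0.25, the smallest 3 pairs allow). Cells over 2 times the median UMI count of their library, where doublets gather, made up 8.90% of Spp1-high against 4.76% of Spp1-low cells in sarcoma 1, 12% against 5.66% in sarcoma 2 and 2.32% against 3.10% in sarcoma 4.

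Macrophages and osteoclasts also express Spp1, and their markers were low in the Spp1-high state. The 25 haematopoietic markers summed to 68.8, 16.7 and 31.3 CPM in the high state of sarcomas 1, 2 and 4, against 212, 33.8 and 23.2 in the low state. In the high state 6, 16 and 17 of the 25 were at 0, and in the low state 2, 1 and 4. Ptprc, the gene of the leukocyte antigen CD45, was at 0 in the high state of every library. The part of the shallower high sums in these zeros was not tested. Cells with 2 or more UMIs of these markers made up 21.2% of Spp1-high and 20.04% of Spp1-low cells in sarcoma 1. The shares were 16% and 20.3% in sarcoma 2, and 18.9% and 16.3% in sarcoma 4. S100a8 made up most of the sum of sarcoma 1. The 8 osteoclast markers summed to 10.9, 2.62 and 71.8 CPM against 10.99, 4.77 and 90.2, and Nfatc1, which other cells express too, was most of the sum in sarcoma 4.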

How the data were processed

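Single-cell RNA sequencing was done in 5 mouse libraries with the 10x Chromium 3′ v2 kit on sorted cells, per the labels' protocols. Per the file headers, the authors counted UMIs with Cell Ranger 6.0.1, and per the submitters' processing notes on mm10. Of the annotation, the release is not given in the sources used here. What they deposited are raw counts per gene and barcode over 28001 features, with no barcode under 500 UMIs.

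Doublets were not removed. Counts were summed per library and state without the 8 genes of the rule and tested with edgeR 4.0.16 (quasi-likelihood, library as block, TMM, filterByExpr, Benjamini-Hochberg at 0.05), with 2 residual degrees of freedom. The 2 states of a library are cells of the same tumour, which is what pairs them. DESeq2 1.42.0 and limma-voom 3.58.1 were alternatives, in R 4.3.3, and tables and figures used Python 3.11.15. Differences per library are log2 of CPM + 5. SE values are those of the edgeR fit. The testing step was tested on simulated data.

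The members and gene lists were chosen with earlier results of these data known. The named-gene rule took genes past the edgeR threshold, which gave none, so the genes called by DESeq2, members of the lists by level or p, and up to 10 genes in each direction per library took its place after values were seen. Single-library genes had 50 CPM or more in either state. The higher ones also had at most 25% of their high-state UMIs in 1 cell, and the lower ones had no such limit. Promoters came from RefSeq, and gene positions from the GENCODE annotation of the same build.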

Additional observations from a re-analysis of the deposited data

Results flagged for a closer look

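The highest Spp1 level of a single sarcoma cell was far lower in sarcoma 3 than in the other 3 tumours, at 159 UMIs per 10000 against 726, 669 and 760 in sarcomas 1, 2 and 4. The gap to the nearest tumour was 0.849 of the whole range, above the critical value of Dixon's test for 4 samples. Chance passes that value in about 1 in 20 groups, and 5 measures were examined in this way. Sarcoma 3 also had the fewest Spp1-high cells, 13 of 2545.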

How the results depend on the processing

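The count of 0 called genes was kept with sarcoma 3 added, an upper limit of 10, low cells at 0 Spp1 UMIs, without haematopoietic-marker cells, without cells over 2 times the median UMIs, without cells at 10 or more G2/M UMIs per 10000, at a mitochondrial limit of 5%, with RLE or no scaling, and with limma-voom. The sarcoma 3 and G2/M-per-10000 settings were chosen after seeing the data. The count became 1 at an upper limit of 40, 4 with thinned cells, 13 in cells with under 3 G2/M UMIs (3, 5 and 47 high cells), 15 without the filter on low counts and 28 with DESeq2, and ran from 5 to 195 with 1 library left out. Without the replicate block 0 genes were called and 21 held an unadjusted p under 0.05, against 569 with the pairing. The cause was not tested. In cells with under 3 G2/M UMIs the log2 fold change reversed to -0.18 for Ctsl, -0.22 for Fth1, -0.27 for Inpp4b, -0.85 for Qpct and -1.63 for Qrfp. Ptn reversed to -0.12 at an upper limit of 40 and -0.10 without haematopoietic-marker cells. The other 471 gene values kept direction and side of the threshold, and 86 passed it. Of the 86, 28 were in the DESeq2 setting, by which those genes had been chosen, and 26 were in the fit without sarcoma 4. The 86 are thus no separate support for the genes. Without thinning, the difference (high minus low) was 112 detected genes, -1.29 percentage points for G2/M cells and -0.605 for S phase cells. Leaving out 1 library gave -62.75 to -30.0 for detected genes, -0.547 to 0.0155 points for the ribosomal share, -7.17 to 10.998 for G2/M and -4.05 to 8.14 for S phase. At limits of 10 and 40 the Spp1-high shares were 4.04% and 2.29% in sarcoma 1, 1.14% and 0.537% in sarcoma 2, 0.589% and 0.236% in sarcoma 3, and 11.2% and 5.55% in sarcoma 4.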

Other observations

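Spp1 was also high in cells outside the sarcoma class. Among kept cells with 0 Gchfr UMIs and low Rgs5, Spp1 stood at 13.5 UMIs per 10000 in sarcoma 1, 70.3 in sarcoma 2, 5.65 in sarcoma 3 and 7.26 in sarcoma 4. In sarcoma 4, 281 cells met every other condition of the sarcoma rule but held 2 or more UMIs of Ddah1, Wisp1, C1qtnf7 and Fbn2 summed, and 52 of them (18.5%) were at 20 or more Spp1 UMIs per 10000. Of those 281 cells, 69.8% held a UMI of Fbn2, the fibrillin gene whose count removed them.

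In sarcoma 3, which had too few Spp1-high cells to be compared, the 13 cells held Mmp9, a gelatinase that can cut osteopontin, at 709 CPM against 107 in the Spp1-low cells, and Ccl2 at 1508 against 135. A single cell held 56.3% of those Mmp9 UMIs and 75.1% of those Ccl2 UMIs. Fth1 stood at 4731 against 2157, and 7 of the 13 cells (53.8%) held 50 or more Fth1 UMIs per 10000, against 12.1% of 2516 Spp1-low cells. Of the 3 libraries compared, sarcoma 4 showed a like difference in Fth1. With 13 cells of 1 library these values carry no test.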
